A study of Glycine max with 12 samples.

Results

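Young pods of the low-linolenic acid soybean mutant MT72 were compared with pods of the wild type JN18 at 30 d after flowering, across the long non-coding RNAs (lncRNAs) expressed at that stage. Of 11072 lncRNA transcripts in the deposited table, 8079 were above 0.1 FPKM in at least 3 of the 6 libraries of this stage, and these were tested. FPKM is a level of expression corrected for the length of the transcript and the size of the library. MT72 is a fourth-generation mutant made with ethyl methanesulfonate, and JN18 is a high-oil variety that served as the control. The sources used here do not say whether JN18 was the parent of MT72, so the comparison is between materials that may differ at many loci. The group MT_30 holds libraries MT_7, MT_8 and MT_9 of MT72, and JN_30 holds libraries JN_7, JN_8 and JN_9 of JN18. Pods of the same materials at 40 d gave MT_40 (MT_4, MT_5 and MT_6) and JN_40 (JN_4, JN_5 and JN_6), which stood in the same fit and are used to show where 30 d differed. Plants of both materials were grown at the same research base, and no treatment is described for either. The replicates are stated to be biological, and the sources used here do not say how many plants a library holds. The table holds lncRNAs alone, so the tissue could not be checked against the marker genes of seed or pod wall. A whole pod holds several tissues, and fewer cells of a type and less RNA per cell cannot be told apart.

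Soybean seeds fill with oil and protein while the pod is still green, and the fatty acids of the oil are made in plastids and further desaturated in the endoplasmic reticulum. Linolenic acid is made from linoleic acid by the FAD3 desaturases, and low-linolenic soybean lines are bred because linolenic acid makes the oil prone to oxidation. A lncRNA is a long transcript without coding potential. Plant lncRNAs are sorted by their place beside genes, and members of each class are known that act on chromatin, on neighbouring genes or as decoys of miRNAs. Intergenic lncRNAs lie between genes, intronic ones within an intron, antisense ones opposite a gene, and sense ones share a splice junction with a gene or overlap its exons. No sequence is shown, because the table gives positions without sequence and the sources used here do not state their genome build.

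The libraries of this stage held 10.0 to 12.2 Gb of aligned bases each, so that 1 FPKM in a lncRNA of the median length stood for 22.6 to 27.5 reads. Library JN_9 stood apart. It was the deepest of the 6 and listed 2847 lncRNAs at 0 FPKM, against 2074 to 2217 in each of the other 5. Across the 8079 lncRNAs, which share their annotation and lengths in all libraries, the log2 levels of the MT_30 libraries had Pearson correlations of 0.79 to 0.81 with each other. JN_7 and JN_8 had 0.64 with each other and 0.62 to 0.69 with the MT_30 libraries. They were thus no more like each other than like libraries of the mutant. JN_9 had 0.42 to 0.54 with every other library. The JN_30 libraries were therefore more spread than the MT_30 libraries even with JN_9 left aside. On average 8905 ± 54.4 lncRNAs (SD, n = 3) were above 0 in a library of MT_30 and 8693 ± 411 (SD, n = 3) in one of JN_30 (p = 0.6 in a two-sided exact permutation test, which cannot go below 0.1 here). Without JN_9 the mean in JN18 was 8927 ± 101 (SD, n = 2) and the difference turned to -21.5 lncRNAs (p = 1 in the same exact test, which cannot go below 0.2).

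LncRNAs that differed between the materials at 30 d were mostly higher in MT72. A limma model on log2 of FPKM plus 0.1, fitted to all 12 libraries, called 86 lncRNAs with a Benjamini-Hochberg adjusted p up to 0.05, which is 1.06% of those tested. Of these, 70 were higher in MT72 (0.866%) and 16 were lower (0.198%). The 70 had log2 fold changes of 1.52 to 7.76 with a median of 3.19, and the 16 had -3.72 to -1.79 with a median of -2.77. Among them 9 of the 70 and 2 of the 16 had 0 FPKM throughout the opposite material, where the fitted size depends on the pseudocount and is no bound. A group at 0 throughout also adds no spread to the shared estimate, so p values there may be too small. Over all 8079 lncRNAs the median was 0.00. The libraries of the 2 materials did not overlap for any of the 86, while over all lncRNAs tested 1523 (18.9%) did not overlap, 785 with MT72 above and 738 below. Under looser thresholds (log2 fold change beyond 1 either way, p up to 0.05 before adjustment) 1044 lncRNAs passed (12.9%), with 647 higher (8.01%) and 397 lower (4.91%). The adjusted calls depended on which libraries shared the estimate of the spread. With only the 6 libraries at 30 d in the fit, 40 were called, 27 higher and 13 lower, and 32 of these were among the 86. The split of the calls also depended on how the levels were scaled. Voom on estimated reads moved the median log2 fold change of all lncRNAs to -0.34. It called 20 higher and 9 lower at the adjusted p, and 421 higher and 853 lower at the unadjusted thresholds. Voom divided each library by its summed lncRNA reads, which FPKM does not. The summed FPKM of all lncRNAs was 26235, 33375 and 41920 in MT_7, MT_8 and MT_9 and 33879, 22730 and 23285 in JN_7, JN_8 and JN_9. The part of these sums in the shift was not tested. Each of the 86 kept its direction with voom.

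**Figure D1:**
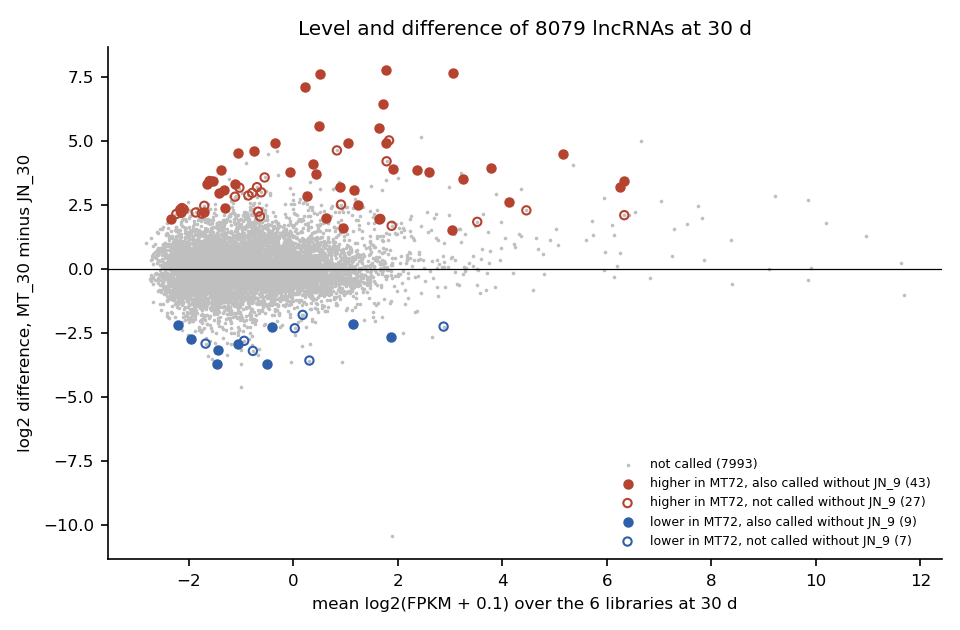
Each point is one of 8079 lncRNAs, with the mean log2(FPKM + 0.1) over the 6 libraries at 30 d on the x axis and the log2 difference between MT_30 and JN_30 on the y axis. Coloured points are the limma calls, 70 above 0 and 16 below, and open circles mark the 34 that were not called without JN_9. The lone point at the bottom is MSTRG.28812.1, which was not called.

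Leaving out library JN_9 removed part of the calls. The libraries of the materials did not overlap for any of the 86, so their direction was bound to stay without JN_9. Without it 66 lncRNAs were called (0.817%), 49 higher and 17 lower. Of these, 52 were among the 86 (43 higher and 9 lower). The other 34 of the 86 had adjusted p values from 0.0505 to 0.14 without the library. The median log2 fold change of all lncRNAs was then -0.06. With only MT_7, MT_8, MT_9, JN_7 and JN_8 in the fit, 51 were called, 34 higher and 17 lower, of which 32 were among the 86. The libraries did not overlap for 2366 lncRNAs (29.3%) when JN18 was left with 2 libraries, with MT72 above in 1081 and below in 1285. At the unadjusted thresholds 846 lncRNAs passed, 466 higher and 380 lower, and 611 of them were shared with the 1044.

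A further 14 lncRNAs were called only without JN_9, 6 higher and 8 lower in MT72. The intergenic MSTRG.24607.2 (chromosome 18, 37626751 to 37632695) had 0, 0 and 0.169 FPKM in MT_7, MT_8 and MT_9 and 4.26, 5.94 and 0.125 FPKM in JN_7, JN_8 and JN_9. JN_7 and JN_8 were high, and JN_9 was low like the mutant. Its log2 fold change was -5.20 without JN_9 (adjusted p = 0.000643, limma) and -3.70 with it (0.0976). For the abundant intergenic MSTRG.28219.1 (chromosome 19, 49002472 to 49003144) the MT_30 libraries had 376, 577 and 859 FPKM and the JN_30 libraries 0.624, 33.9 and 225. Here JN_9 was the high one of JN18, though still under every MT_30 library, and the log2 fold change was 6.85 without it (adjusted p = 0.0152) against 5.01 with it (0.131). MSTRG.4566.1, intergenic on chromosome 10, had 175, 337 and 585 FPKM in MT_30 and 34.1, 21.6 and 193 in JN_30. JN_9 lay above MT_7 there, so the groups overlapped. These 3 were picked from the 14 after their values had been seen.

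**Figure D2:**
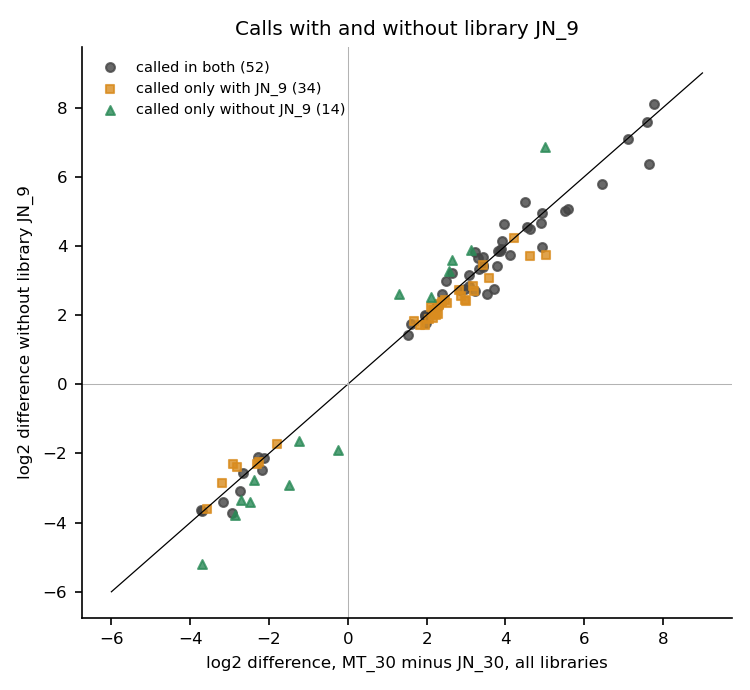
Log2 differences between MT_30 and JN_30 with all libraries (x axis) and without library JN_9 (y axis) for the 100 lncRNAs called in either fit. The 52 called in both and the 34 called only with JN_9 lie near the line of equal values, and the 14 called only without it (triangles) lie farther from 0 without the library.

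Most of the 15 largest increases belonged to intergenic and overlapping sense transcripts, and many were close to silent in JN18. An antisense transcript of PRP3 was also among them. Not all were silent: MSTRG.45584.1 had 3.14, 5.89 and 22.5 FPKM in JN_7, JN_8 and JN_9. MSTRG.16468.1, an intergenic transcript of 516 bases and 1 exon (chromosome 15, 6430810 to 6431325), had 29.3, 61.6 and 70.3 FPKM in MT_7, MT_8 and MT_9. In JN_7, JN_8 and JN_9 it had 0.112, 0.0579 and 0.272 FPKM. Every mutant library lay far above every JN18 library, with a log2 fold change of 7.76 (standard error, SE, 0.53, adjusted p = 1.25e-05, limma), and 8.11 without JN_9. MSTRG.33279.1 (chromosome 20, 42576534 to 42576781), of 248 bases, had 10.04, 13.7 and 18.4 FPKM in MT_30 while all 3 JN_30 libraries listed it at 0 (adjusted p = 0.00112). Neither transcript has a strand in the table. Both calls were kept in all 23 alternative settings, with an adjusted p of at most 0.00308 for MSTRG.16468.1 and 0.00957 for MSTRG.33279.1. The latter passed the filter through MT_30 alone and had to differ.

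Other large increases rested on less even libraries. MSTRG.49939.1 (chromosome 8, 42028802 to 42031565), an intergenic transcript of 2 exons, had 19.8, 1019.7 and 79.9 FPKM in MT_7, MT_8 and MT_9 and 1.71, 1.02 and 0 in JN_7, JN_8 and JN_9. MT_8 stood far above the other mutant libraries, and JN_9 was at 0. The log2 fold change was 7.65 (SE 1.26, adjusted p = 0.0095, limma), 6.37 without JN_9 (0.0317), and a fit of only the 6 libraries of this stage gave an adjusted p of 0.0907. MSTRG.28712.2, a sense transcript overlapping LOC100806774 (chromosome 2, 2512390 to 2558055), had 44.2, 25.3 and 6.76 FPKM in MT_30, against 0.00155, 0.00324 and 0 in JN_30 (adjusted p = 0.00623). Here MT_9 was the low mutant library and JN18 was at or close to 0 throughout. MSTRG.36128.1 (chromosome 3, 44170885 to 44171235) had 9.44, 23.5 and 41.3 FPKM in MT_30 and 1.09, 0.263 and 0.124 in JN_30 (adjusted p = 0.00623). MSTRG.43300.1 (chromosome 6, 18752879 to 18753080) had 8.79, 19.98 and 37.6 and 1.57, 0.121 and 0.553 FPKM in the same order (adjusted p = 0.00638). In both of these intergenic transcripts MT_9 was the highest library and MT_7 the lowest of the mutant, and all mutant libraries were above all of JN18.

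For some increases JN_7 stood close to the mutant and JN_9 far from it. MSTRG.6122.1, an intergenic transcript of 2 exons on chromosome 11 (7479924 to 7481048), had 22.5, 30.1 and 12.2 FPKM in MT_30 and 3.85, 0.484 and 0.00538 in JN_30. Its log2 fold change fell from 5.02 (adjusted p = 0.0418, limma) to 3.74 without JN_9 (0.0979). MSTRG.26391.1 on chromosome 19 (9853139 to 9853506) had 9.98, 10.5 and 6.46 FPKM in MT_30 and 3.23, 0.0373 and 0 in JN_30, and went from 4.63 (0.044) to 3.71 (0.135). For both, the level in JN_7 was many times that in JN_9. These calls were kept in 8 of 23 and 5 of 23 alternatives, fewer than any other of the 15 largest increases. Over all 86 calls the number kept had a median of 16 of 23 and a minimum of 5.

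A stretch of chromosome 7 held 5 of the calls within 1 Mb of a neighbour, 4 higher and 1 lower. MSTRG.46261.1 (36182734 to 36208657) is a sense transcript of 2 exons that overlaps LOC100803874, and it had 39.4, 40.1 and 17.9 FPKM in MT_7, MT_8 and MT_9. The JN_30 libraries had 0.933, 0.192 and 0.0412 FPKM. Its log2 fold change was 6.45 (SE 0.61, adjusted p = 0.000199, limma), and 5.80 without JN_9 (0.000392). The isoform MSTRG.46261.2 had 11.5, 4.74 and 1.32 FPKM in MT_30 and 0.194, 0 and 0 in JN_30 (adjusted p = 0.00342). MSTRG.46262.1 (36182789 to 36183008) lies on the opposite strand within the span of both, with 9.88, 14.8 and 6.09 FPKM in MT_30 and 0.126, 0.271 and 0 in JN_30 (adjusted p = 0.000199). The 3 overlap, the isoforms share nearly all their positions, and the sources used here do not say how reads were divided between isoforms or whether the strand set by the stranded library kit was used, so they are not 3 independent measurements. Farther off, the intergenic MSTRG.46145.1 (34958175 to 34959096) had 14.5, 14.5 and 6.84 FPKM in MT_30 and 0.953, 0.398 and 0 in JN_30 (adjusted p = 0.00415). In all 4 MT_9 was the lowest mutant library and JN_9 was at or near 0. The lower call, the intergenic MSTRG.46243.1 (35880791 to 35881734), had 0.298, 0.446 and 0.112 FPKM in MT_30 and 4.81, 3.74 and 4.03 in JN_30, with even levels in JN18. Its log2 fold change was -3.58 (adjusted p = 0.0435), and -3.60 without JN_9 (0.101).

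Some of the calls were abundant lncRNAs, and most of these were intergenic. Of 133 lncRNAs with a mean above 10 FPKM in either material at 30 d, 24 were called higher and 1 lower. A lncRNA high in one material alone enters this set through its difference, and 115 of the 133 passed in MT72, so the share called is not a result about abundance. The 24 were 21 intergenic transcripts and 3 others, 20 had 1 exon, and 19 were also called without JN_9. MSTRG.45584.1 (chromosome 7, 14342193 to 14342850) had 115, 162 and 264 FPKM in MT_7, MT_8 and MT_9 and 3.14, 5.89 and 22.5 in JN_7, JN_8 and JN_9. The log2 fold change of 4.49 (SE 0.71, adjusted p = 0.00692, limma) became 5.27 without JN_9, the high library of JN18 here. On chromosome 19, MSTRG.28225.1 (48942167 to 48942725) had 124, 265 and 383 FPKM in MT_30 and 18.7, 14.3 and 57.4 in JN_30 (adjusted p = 0.0323). Just beside it, MSTRG.28224.1 (48941217 to 48941657) had 10.1, 23.97 and 31.5 and 3.19, 0.433 and 1.296 FPKM (adjusted p = 0.0154). In this pair, chosen after its values were seen, MT_7 was the lowest and MT_9 the highest mutant library. MT_9 was the highest mutant library in 16 of the 24 and MT_7 the lowest in 17, and within JN18 the highest library was JN_7 in 12, JN_9 in 7 and JN_8 in 5. MT_9 was also the highest in 68 of the 115 with a mean above 10 FPKM in MT72. Over all 8079 lncRNAs it was the highest in 29.5% and the lowest in 35.9%. The summed FPKM of all lncRNAs was 26235, 33375 and 41920 in MT_7, MT_8 and MT_9, while their median was 0.307, 0.327 and 0.303 FPKM, so the order stood in the abundant lncRNAs and not in the median one. Its part in these calls was not tested.

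Fewer lncRNAs were lower in MT72, and these were less abundant. Of the 16, 1 had a mean above 10 FPKM in JN18. The intergenic MSTRG.53475.1, on an unplaced scaffold at 772804 to 773326, had 1.55, 1.52 and 1.03 FPKM in MT_7, MT_8 and MT_9 and 8.06, 9.05 and 10.3 in JN_7, JN_8 and JN_9. The libraries of each material were close together and far from those of the other. Its log2 fold change was -2.67 (SE 0.28, adjusted p = 0.00038, limma), and -2.58 without JN_9. On another scaffold the isoforms MSTRG.53721.1 and MSTRG.53721.2 were both lower. The first, at 2921 to 4601, had 1.17, 0.881 and 0.815 FPKM in MT_30 and 4.96, 3.99 and 4.61 in JN_30 (adjusted p = 0.00623). The second, at 2929 to 4601, had 0, 0.261 and 0.102 and 2.28, 2.35 and 2.74 FPKM (adjusted p = 0.00202). They share nearly all their positions and are not independent.

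Several antisense and sense transcripts were also lower in the mutant. MSTRG.42751.1, antisense to LOC100170707 (chromosome 6, 12480291 to 12480711), was listed at 0 in all MT_30 libraries and had 1.66, 0.826 and 1.26 FPKM in JN_7, JN_8 and JN_9 (adjusted p = 0.00183, limma). The most abundant of the 16 was MSTRG.27696.1, antisense to LOC100777426 (chromosome 19, 44575166 to 44582002), with 3.998, 2.79 and 3.12 FPKM in MT_30 and 6.76, 36.9 and 16.1 in JN_30. The mutant libraries were even, JN_7 was the closest to them and JN_8 far above. Its log2 fold change of -2.25 (adjusted p = 0.036) had an adjusted p of 0.0778 without JN_9 and was called in 5 of 23 alternatives. MSTRG.45039.1, a sense transcript overlapping LOC102665361 on chromosome 7 (5646897 to 5720809), had 0.0969, 0.0676 and 0.0598 FPKM in MT_30 and 1.77, 2.74 and 0.355 in JN_30. JN_9 lay between the others of JN18 and the mutant, and the log2 fold change of -2.95 (adjusted p = 0.0234) was -3.73 without it (0.000705). The intergenic MSTRG.25385.1 (chromosome 18, 53577308 to 53577809) had 0.0185, 0.0199 and 0.0309 FPKM in MT_30 and 1.44, 1.02 and 0.697 in JN_30 (adjusted p = 0.00183). The rest of the 15 largest decreases had adjusted p values of 0.00526 to 0.0462.

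**Figure D3:**
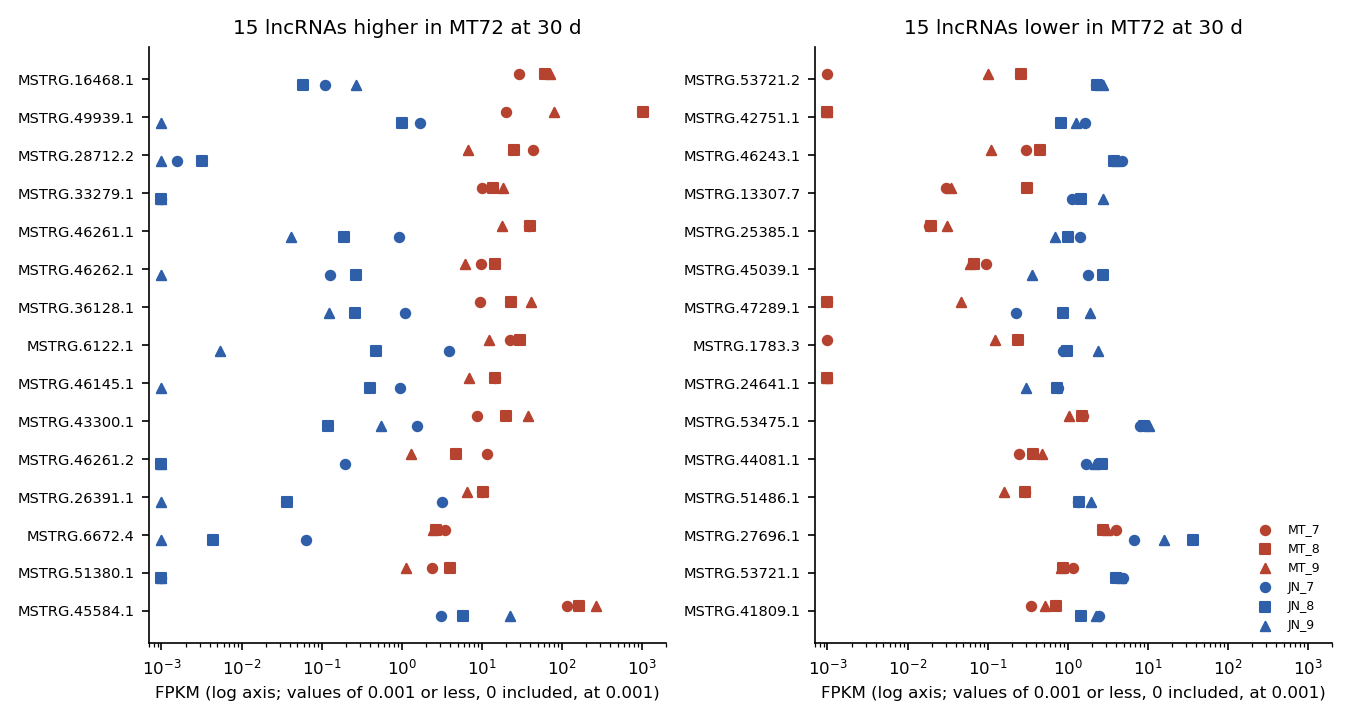
FPKM on a log axis in each library at 30 d for the 15 largest increases (left) and the 15 largest decreases (right) among called lncRNAs whose higher group averaged 0.5 FPKM or more. Red symbols are MT_30 libraries, blue symbols JN_30 libraries, and values of 0.001 or less stand at 0.001. Red and blue symbols do not overlap in any line, and JN_9 (blue triangles) is the lowest of JN18, or ties with the lowest, in most lines on the left.

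Some lncRNAs were listed in every library of one material and in none of the other. In all, 49 were listed at 0 in JN_30 and above 0 in all of MT_30, of which 22 were tested and 9 were called. In the other direction the numbers were 40, 12 and 2. With JN_9 left aside 81 were at 0 in JN_7 and JN_8 and above 0 in all of MT_30, and 79 the other way, so that the directions were nearly equal. Those tested passed the filter through 1 material alone and had to differ, so the counts called are not set against the 1.06% over all lncRNAs. Most were near the floor, with median FPKM of 0.234 and 0.166 in the material that had them. MSTRG.51380.1, intergenic on chromosome 9 (10332679 to 10332882), had 2.38, 4.07 and 1.13 FPKM in MT_30 and 0 throughout JN_30 (adjusted p = 0.00036, limma). MSTRG.19913.1, an intergenic transcript of 3 exons on chromosome 16 (32072730 to 32073592), had 1.55, 1.39 and 1.16 FPKM in MT_30 and was likewise listed at 0 in JN_30 (adjusted p = 0.000199). MT_30 was even for the second and MT_9 low for the first. Not every case was called or even tested. The sense transcript MSTRG.26204.1 at LOC102665313 had 5.04, 0.178 and 0.0454 FPKM in MT_30, most of it in MT_7, and MSTRG.38528.1, antisense to LOC100780100, had 0.0505, 0.0719 and 4.89, most of it in MT_9. Neither passed the filter on low values. On the side of JN18, the untested MSTRG.14287.1, antisense to LOC106795773, had 1.71, 0.0532 and 3.61 FPKM in JN_30. The intergenic MSTRG.50166.1 and MSTRG.30278.1 had 0.114, 0.737 and 6.25 FPKM and 1.21, 1.599 and 0.72996 FPKM there, with adjusted p values of 0.164 and 0.112.

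The widest gap of this kind lay in an intron of LOC102660211 and was not called. MSTRG.28812.1 (chromosome 2, 3612033 to 3612610) was listed at 0 in all of MT_30 and had 42.9, 674 and 89.4 FPKM in JN_7, JN_8 and JN_9 (adjusted p = 0.145, limma). MSTRG.28811.1 covers the same bases on the other strand (3612029 to 3612610), with 1785, 2511 and 2940 FPKM in MT_7, MT_8 and MT_9 and 815, 669 and 88.9 in JN_7, JN_8 and JN_9. In JN_8 and JN_9 the levels of both strands were nearly equal, in JN_7 they were far apart, and in MT_30 all signal stood on one strand. With only the 6 libraries of this stage in the fit MSTRG.28812.1 had an adjusted p of 0.0022, since at 40 d it was at 0 in MT_6 and JN_6 and high in the other 4 libraries. The libraries were made with a stranded kit, but the sources used here do not say whether the strand was used when reads were assembled and counted. The part of that step in the gap was not tested.

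The classes of lncRNA did not share the calls in proportion to their numbers. Intergenic lncRNAs made up 2646 of the 8079 tested and 58 of the 86 calls, 50 higher and 8 lower, or 2.19% of the class. Intronic lncRNAs, the largest class with 4323 tested, gave 11 calls (0.254%), 9 higher and 2 lower. Antisense lncRNAs gave 8 calls among 175 (4.57%), 5 higher and 3 lower, and overlapping sense lncRNAs 6 among 129 (4.65%), 5 higher and 1 lower. Sense lncRNAs that share a junction gave 3 among 806 (0.372%), 1 higher and 2 lower. Beside the 1.06% over all classes, no test of the difference between classes was run. The median log2 fold change was 0.17 in the intergenic class, -0.06 in the intronic, -0.04 in the junction-sharing, 0.04 in the antisense and -0.17 in the overlapping class. The intergenic median was 0.04 without JN_9 and turned to -0.07 with voom, where that of all lncRNAs was -0.34. Without JN_9 the intergenic calls were 36 higher and 9 lower, the intronic 3 and 4.

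**Figure D4:**
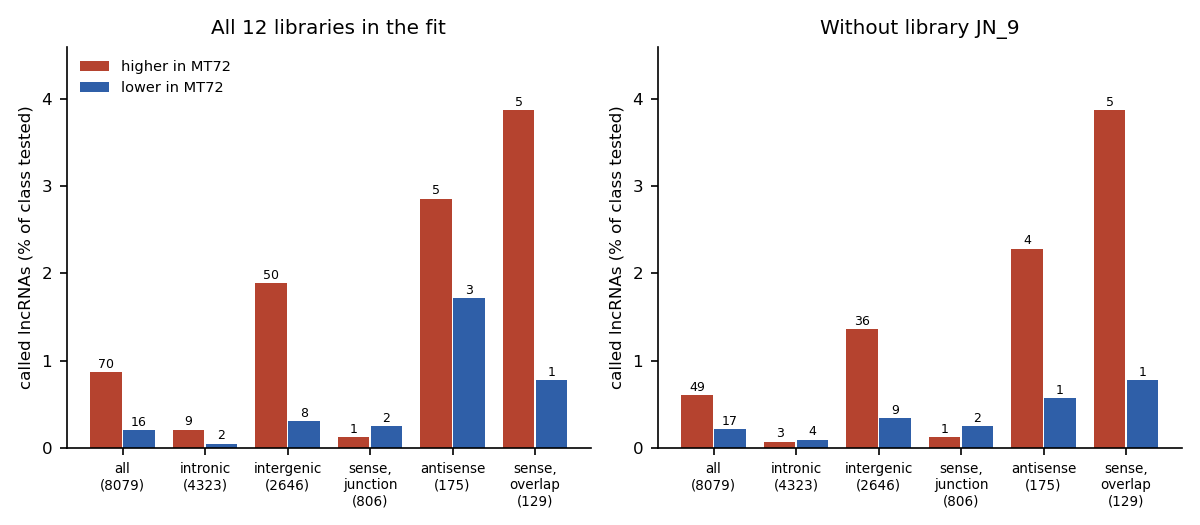
Called lncRNAs as a percentage of the lncRNAs tested in each class, with the number tested under each name and the number called above each bar, for all 12 libraries (left) and without JN_9 (right). Intergenic calls higher in MT72 are 50 on the left and 36 on the right, and intronic ones 9 and 3.

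Intronic and antisense calls name the genes they lie in. MSTRG.14432.1, in an intron of LOC100806012 (chromosome 14, 8290048 to 8290855), was the most abundant intronic call, with 16.1, 23.02 and 30.1 FPKM in MT_7, MT_8 and MT_9 and 1.18, 3.32 and 0.898 in JN_7, JN_8 and JN_9. The log2 fold change was 3.78 (SE 0.64, adjusted p = 0.013, limma). MSTRG.31225.1, antisense to LOC100793866 (chromosome 2, 46776905 to 46777407), had 0.947, 1.54 and 0.497 FPKM in MT_30 and was listed at 0 in JN_30 (adjusted p = 0.00202). MSTRG.41111.4, antisense to LOC100782090 (chromosome 5, 40945924 to 40946614), had 1.72, 0.339 and 1.496 FPKM and was also at 0 in JN_30 (adjusted p = 0.00539). These 3 were named after their values were seen. In all, 28 calls had a host gene, from 27 genes, of which 23 were in the reference table of gene names and 22 were marked there as protein coding. Their functions are not annotated in that table. The antisense calls are of spliced transcripts from stranded libraries. No source used here says whether the counting used the strand, and without it reads of a gene and its antisense partner cannot be told apart.

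The summed FPKM of a class followed its few abundant members. Overlapping sense lncRNAs summed to 2948, 3439 and 4431 FPKM in MT_7, MT_8 and MT_9 and to 1698, 1009 and 1133 FPKM in JN_7, JN_8 and JN_9, so that the materials did not overlap. The largest member in each of the 6 libraries was MSTRG.35023.2, a sense transcript at LOC100785425 (chromosome 3, 34373476 to 34437265), with 1823, 2091 and 2819.6 FPKM in MT_30 and 879, 413 and 683 in JN_30. It did not overlap between the materials and was not called (log2 fold change 1.81, adjusted p = 0.287, limma). The sums of the intergenic class, 11825, 16856 and 18976 FPKM in the mutant and 13411, 9285 and 8517 in JN18, overlapped. The most abundant lncRNAs of all were not called. MSTRG.41534.2 and MSTRG.41534.1, isoforms antisense to LOC100789918 on chromosome 6, had 1832, 2276 and 3018 FPKM and 2215, 2502 and 5452 FPKM in MT_30. In JN_30 they had 8174, 2741 and 4595 FPKM and 304, 2572 and 2610.4 FPKM. The share of each isoform moved between libraries, with JN_7 high in the first and low in the second. The intergenic MSTRG.17790.1 on chromosome 15 had 2412, 3729 and 4441 FPKM in MT_30 and 5008, 2620.2 and 1921 in JN_30, with wide overlap (log2 fold change 0.22, adjusted p = 0.947, and -0.08 without JN_9).

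Few lncRNAs in or opposite genes of oil and seed reserves were expressed enough to be tested, and none was called. With 1.06% called over all lncRNAs, 0 calls among so few is near the background and not a result about these genes. Of 6 lncRNAs in DGAT, FATB1B, PLDZ and WRI1, 3 were tested and 0 were called by limma at the adjusted p, and 0 passed the unadjusted thresholds. MSTRG.51202.1, in an intron of DGAT, the acyltransferase that completes triacylglycerol, had 0.812, 0.616 and 0.647 FPKM in MT_7, MT_8 and MT_9 and 1.06, 1.65 and 1.26 in JN_7, JN_8 and JN_9. Every mutant library lay below every JN18 library, by a log2 fold change of -0.84 (SE 0.37, adjusted p = 0.323). MSTRG.21677.1, in an intron of FATB1B, a thioesterase that releases saturated fatty acids from the plastid, had 1.45, 1.85 and 1.09 and 3.16, 1.25 and 0.664 FPKM with wide overlap (adjusted p = 0.983). MSTRG.33761.1, in an intron of the phospholipase gene PLDZ, had 0.2103, 0.5298 and 0.348 and 0.292, 0.211 and 1.37 FPKM, with JN_9 high (adjusted p = 0.829). WRI1 encodes the transcription factor that turns on fatty acid synthesis in seeds, and its 2 intronic lncRNAs, MSTRG.17772.1 and MSTRG.17773.1, were at 0 in MT_30 and at most 0.103 FPKM in JN_30. The median of the 3 tested was -0.34 (-0.45 without JN_9) against 0.00 over all lncRNAs.

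Of 11 lncRNAs at storage and late seed genes, 4 were tested and 0 were called by limma, while 1 passed the unadjusted thresholds. This was MSTRG.44528.1, opposite VSPA, a vegetative storage protein gene (chromosome 7, 1146236 to 1146561). It had 2.48, 3.81 and 0.1995 FPKM in MT_30 and 0, 0.101 and 0 in JN_30, with MT_9 near the JN18 level (adjusted p = 0.057). All 3 antisense transcripts of the glycinin gene GY1 were at 0 in every library. MSTRG.31811.1, in an intron of LEA-2, whose family protects drying seeds, had 2.62, 1.74 and 1.86 and 2.597, 2.82 and 4.61 FPKM (adjusted p = 0.354). Outside the storage list, MSTRG.44447.1, antisense to the lipoxygenase gene VLXC, had 2.76, 2.1001 and 2.11 FPKM in MT_30 and 0.607, 3.33 and 0.386 in JN_30 (adjusted p = 0.374). MT_30 was even, and JN_8 lay above it while JN_7 and JN_9 lay below. The one lncRNA at a starch or sugar gene, MSTRG.44141.1, antisense to the beta-amylase gene BMY1, passed the unadjusted thresholds with 0.492, 0.627 and 0.371 and 0.351, 0.165 and 0.0676 FPKM (adjusted p = 0.339). The median log2 fold change of the 4 storage transcripts was -0.37, and -0.14 without JN_9.

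The one called host with a gene symbol was PRP3, which encodes a proline-rich cell wall protein. Of 5 antisense transcripts there, 2 were tested and 1 was called. MSTRG.6672.4 (chromosome 11, 12644195 to 12644559) had 3.52, 2.72 and 2.44 FPKM in MT_7, MT_8 and MT_9 and 0.0638, 0.00436 and 0 in JN_7, JN_8 and JN_9. For this isoform MT_30 was even and JN_30 was at or close to 0, with a log2 fold change of 4.63 (SE 0.65, adjusted p = 0.00354, limma) and 4.50 without JN_9 (0.0126). The isoform MSTRG.6672.2, of the same span, had 9.101, 0.999 and 14.4 and 4.804, 0.299 and 0 FPKM, with MT_8 far below the other mutant libraries (adjusted p = 0.235). Of the untested isoforms of nearly the same span, MSTRG.6672.5 had 0, 0 and 10.4 FPKM in MT_7, MT_8 and MT_9 and 0 in JN_30. MSTRG.6672.6 was at 0 in MT_30 and had 0, 4.54 and 0 FPKM in JN_7, JN_8 and JN_9. JN18 was thus not silent at this gene when all isoforms are regarded. Isoforms at one span share reads, and their sum was not tested. Of 8 lncRNAs at transcription factor genes (BZIP9, GT-2A, MYB52, MYB73 and MYB85), 4 were tested and 0 were called at either threshold. At MYB73, MSTRG.44155.1 had 0.1502, 0.0716 and 0.2499 FPKM in MT_30 and 0.217, 0.141 and 12.2 in JN_30, so that its log2 fold change of -1.99 was -0.16 without JN_9.

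A list of 16 lncRNAs had been singled out earlier on these same libraries, so its direction is not independent evidence. Of these, 13 were tested, 2 were called higher by limma and 8 were higher at the unadjusted thresholds, with 0 lower at either. Over all lncRNAs tested 0.866% were called higher and 8.01% were higher at the unadjusted thresholds. The median log2 fold change was 1.67, and 0.72 without JN_9, against 0.00 and -0.06 over all lncRNAs. The 2 calls were intergenic transcripts of 1 exon. MSTRG.50137.1 (chromosome 8, 43792773 to 43793606) had 30.9, 52.6 and 95.9 FPKM in MT_7, MT_8 and MT_9 and 1.42, 3.07 and 8.72 in JN_7, JN_8 and JN_9 (log2 fold change 3.95, adjusted p = 0.0234). MSTRG.40968.1 (chromosome 5, 39714673 to 39717955), 3283 bases long, had 24.5, 44.9 and 73.9 and 4.94, 4.18 and 15.8 FPKM (log2 fold change 2.63, adjusted p = 0.0234). In both, MT_9 and JN_9 were the highest libraries of their material. Without JN_9 the log2 fold changes were 4.62 and 3.23. A fit of only the 6 libraries of this stage gave adjusted p values of 0.0497 for MSTRG.50137.1 and 0.157 for MSTRG.40968.1.

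Most of the other lncRNAs of this list had higher means in MT72, with JN_9 the lowest library of JN18, and none was called. MSTRG.45502.1 on chromosome 7 had 5.18, 5.63 and 4.23 FPKM in MT_30 and 2.31, 1.81 and 0.0962 in JN_30, and its log2 fold change was 2.39 (adjusted p = 0.166, limma) and 1.24 without JN_9. MSTRG.27064.1 on chromosome 19 had 1.74, 1.78 and 1.51 and 1.53, 0.607 and 0.02203 FPKM, with 1.77 (0.261) and 0.72 without it. Here JN_7 reached the mutant level and JN_9 was near 0, so the materials overlapped. MSTRG.43234.1 on chromosome 6, the most abundant of the 16 in MT72, had 95.1, 119 and 171 FPKM in MT_30 and 37.8, 95.5 and 14.3 in JN_30 (adjusted p = 0.191). MSTRG.33053.1 on chromosome 20 moved less with the library, with 2.59, 5.09 and 5.77 and 1.27, 1.65 and 0.8395 FPKM, no overlap, and log2 fold changes of 1.73 (adjusted p = 0.108) and 1.49 without JN_9. The sense transcripts MSTRG.29201.1 and MSTRG.4796.5 and the intergenic MSTRG.4672.1 were not tested at this stage, with 7.72, 24.6 and 0, 1.48, 0.08605 and 0.581 and 0.00751, 1.54 and 1.303 FPKM in MT_30. All JN_30 libraries listed them at 0, except JN_8 with 0.07 FPKM for MSTRG.4796.5.

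The lncRNAs called higher at 30 d mostly kept their direction at 40 d, and those called lower did so less often (61 of 70 and 10 of 16). Most differences were smaller at 40 d. Because the list was chosen at 30 d, a smaller difference at 40 d (80 of 86) is a description only. Of the 86, 71 had the same direction at 40 d (61 higher and 10 lower), 4 of the higher ones had a difference of 0 there, and 46 did not overlap at 40 d in the same direction, while 1157 of the 8079 (14.3%) did not overlap at 40 d in either direction. Over all 8079 lncRNAs, 4596 (56.9%) had the same direction at both stages. The median log2 fold change at 40 d was 1.09 for the 70 higher calls and -0.13 for the 16 lower ones, against -0.01 over all lncRNAs. With p up to 0.05 at 40 d before adjustment, 40 of the 86 passed in the same direction, while 512 of the 8079 (6.34%) passed at 40 d in either direction and 369 in the direction they had at 30 d. The 8 lncRNAs called by limma at the adjusted p at 40 d were all among the 86. The filter on the 30 d libraries left out lncRNAs expressed at 40 d alone, so this overlap is partly set by the filter. The stages have no library in common, but the fit gives each lncRNA 1 estimate of its spread for both, so the stages are not fully separate. MSTRG.16468.1 had 33.5, 59.98 and 51.04 FPKM in MT_4, MT_5 and MT_6 and 0.142, 0.343 and 0 in JN_4, JN_5 and JN_6, a log2 fold change of 7.73 next to 7.76 at 30 d. MSTRG.45584.1 had 169, 365 and 261 and 2.41, 4.07 and 13.6 FPKM at 40 d, and 5.59 next to 4.49. Of the 24 abundant higher calls, 24 were higher at 40 d as well and 21 did not overlap there (6.97% of all lncRNAs did so with MT72 above), with a median log2 fold change of 2.69 at 40 d and 4.08 at 30 d.

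The effect of the material itself differed between 30 and 40 d for 7 lncRNAs in a limma contrast with adjusted p up to 0.05 (0.0866%), and 559 passed 0.05 before adjustment. All 7 were among the 86 calls, 5 higher and 2 lower in MT72 at 30 d, and 8 were found without JN_9, 6 of them the same. Because lncRNAs expressed at 40 d alone did not pass the filter at 30 d, that all 7 were 30 d calls is partly set by it. The mutant was high only at 30 d for MSTRG.19913.1 and MSTRG.51380.1, which had 0 FPKM in each of the 9 libraries outside MT_30. The chromosome 7 transcripts MSTRG.46261.1 and MSTRG.46262.1 had 0.0692, 0.175 and 0.118 FPKM and 0.0552, 0.0593 and 0.0552 FPKM in MT_4, MT_5 and MT_6 and were at 0 in JN_40. For all of these, groups at 0 throughout add no spread to the shared estimate, so their p values may be too small. With only the 30 d libraries in the fit, the adjusted p at 30 d was 0.0176 for MSTRG.19913.1 and 0.0184 for MSTRG.51380.1 (limma). It was 0.0083 for MSTRG.46261.1 and 0.00629 for MSTRG.46262.1. MSTRG.43107.1, intergenic on chromosome 6 (15630221 to 15631633), was called higher at 30 d, and its difference at 40 d was not called (log2 fold change -1.42, adjusted p = 0.635). At 30 d it had 1.27, 1.03 and 0.871 FPKM in the mutant and 0.0462, 0.07501 and 0 in JN18, and at 40 d 0.0757, 0 and 0 and 0.1695, 0.158 and 0.382. The difference of its log2 fold changes was 4.49 (SE 0.65, adjusted p = 0.021). The lower calls MSTRG.53475.1 and MSTRG.53721.2 were on average no longer below JN18 at 40 d, with 10.5, 9.28 and 7.36 FPKM against 7.98, 6.45 and 5.17 for the first and 0.634, 1.54 and 1.56 against 0.701, 0.628 and 1.08 for the second. For MSTRG.53721.2 both materials moved. The mean in JN18 was 2.46 FPKM at 30 d and 0.803 at 40 d, and that in MT72 was 0.121 and 1.24. With voom 0 lncRNAs passed this test, and leaving out MT_5, MT_7 or JN_6 also left 0, so the 7 rest on few libraries.

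**Figure D5:**
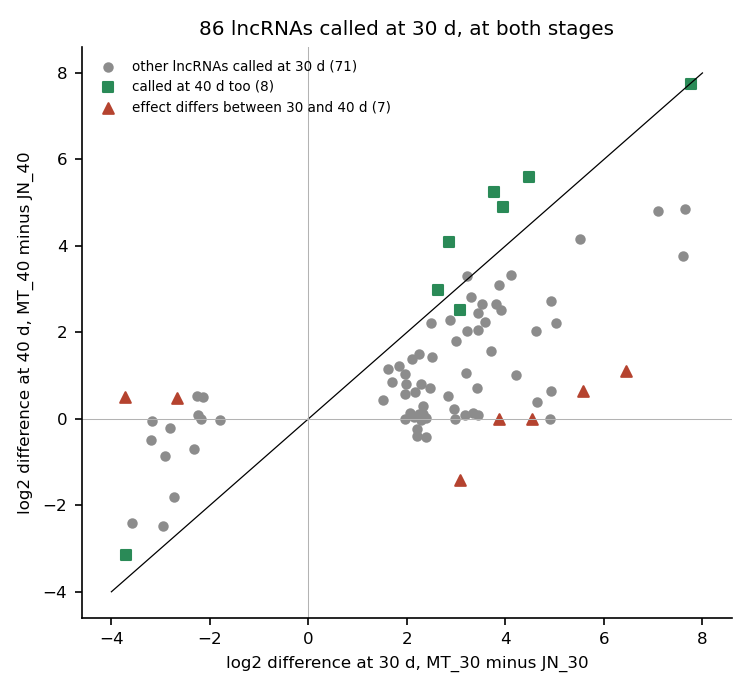
Log2 differences between MT72 and JN18 at 30 d (x axis) and at 40 d (y axis) for the 86 lncRNAs called at 30 d. Squares are the 8 also called at 40 d, triangles the 7 whose effect differed between the stages, and most of the other points lie nearer to 0 on the y axis than on the x axis.

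The calls lay on 19 of the 20 chromosomes, all except chromosome 17, where 356 lncRNAs were tested. Chromosomes 6 and 7 held 8 calls each, of 457 and 421 tested (1.75% and 1.90%). Chromosome 14 held 7 of 347 (2.02%), beside 1.06% over all lncRNAs. Unplaced scaffolds held 3 of 96, all lower, and of these MSTRG.53721.1 and MSTRG.53721.2 are isoforms with nearly the same positions. In all, 20 of the 86 lay within 1 Mb of another call, in 8 places, and 3 of these places mixed higher and lower calls. Isoforms and overlapping transcripts count separately here, and the spacing of all lncRNAs tested was not counted. On chromosome 14, MSTRG.13609.1 (799619 to 799828), MSTRG.13686.1 (1326961 to 1352282) and MSTRG.13749.1 (1803759 to 1804031) were all higher. MSTRG.13749.1 had 7.79, 13.1 and 31.04 FPKM in MT_7, MT_8 and MT_9 and 2.18, 0.1699 and 0.735 in JN_7, JN_8 and JN_9 (adjusted p = 0.0226, limma). MSTRG.13686.1, a sense transcript overlapping LOC100784805, had 2.92, 4.02 and 3.01 and 0.70997, 1.17 and 1.23 FPKM, even within each material (adjusted p = 0.036), and MSTRG.13609.1 had 0.968, 1.09 and 0.796 and 0.139, 0 and 0 FPKM (adjusted p = 0.00623). Whether neighbours such as MSTRG.28224.1 and MSTRG.28225.1 belong to 1 RNA cannot be told from the table.

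The calls that held in all 23 planned settings were 11 of the 86, of which 10 were intergenic. They were MSTRG.16468.1, MSTRG.33279.1, MSTRG.46261.1, MSTRG.46262.1, MSTRG.51380.1, MSTRG.19913.1, MSTRG.26550.1, MSTRG.36999.1 and MSTRG.9226.1 on the higher side and MSTRG.53475.1 and MSTRG.53721.2 on the lower. Of these, MSTRG.33279.1, MSTRG.51380.1 and MSTRG.19913.1 were at 0 in all of JN_30 and passed the filter through MT_30 alone. They had to differ, so their staying called is a description only. MSTRG.36999.1 (chromosome 4, 5634543 to 5635041) had 7.87, 12.96 and 29.9 FPKM in MT_7, MT_8 and MT_9 and 0.825, 0.638 and 1.24 in JN_7, JN_8 and JN_9 (log2 fold change 3.91, adjusted p = 0.000815, limma). MSTRG.9226.1 (chromosome 12, 32775300 to 32775514) had 4.93, 7.15 and 7.45 and 0.301, 1.21 and 0.758 FPKM (adjusted p = 0.00202). MSTRG.26550.1 (chromosome 19, 23613124 to 23613732) had 1.62, 4.23 and 6.01 and 0.0739, 0.253 and 0.171 FPKM (adjusted p = 0.00202). In these 3 intergenic transcripts MT_9 was the highest library, and the lowest mutant library lay well above the highest of JN18. They were named for this, after their values were seen. With the 30 d libraries alone and without JN_9, a setting added later, MSTRG.53721.2 had an adjusted p of 0.061 and the other 10 stayed called.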

How the data were processed

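Ribosome-depleted total RNA of young pods was made into stranded libraries and sequenced by the authors as paired reads of 150 bases from 12 libraries, 3 in each of 4 groups, and the table has a column for every library. StringTie gave the FPKM values that the authors deposited. The paper's methods name HISAT2 for mapping, to reference genomes of soybean varieties, whereas TopHat2 stands in the submitters' processing notes. Neither source gives a version. The coverage values, a signal per base also deposited by the authors, were divided by FPKM to obtain the aligned bases of each library. The CPC score and CNCI score, deposited by the authors, were not used. The genome build is not stated.

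LncRNAs above 0.1 FPKM in at least 3 of the 6 libraries at 30 d were fitted on log2(FPKM + 0.1) in R 4.3.3 with limma 3.58.1, in which fold changes of low lncRNAs are understated. The model held all 4 groups, with a mean-variance trend in the prior, and p-values were adjusted by the Benjamini-Hochberg method over the 8079 tested. The paper's methods name edgeR, which was not run because the table holds no counts. Calls were also counted without adjustment. Numbers detected were compared with an exact permutation test. The code was tested on simulated data. Values are given with and without library JN_9, and the alternatives are pseudocounts of 0.01 and 1, other filters, median centring, no trend, array weights, voom, the libraries at 30 d alone, a replicate block and each library left out. In the voom setting each library was divided by its summed estimated lncRNA reads, without further scaling factors. The setting with only the 30 d libraries and without JN_9 was chosen after seeing the data.

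The lncRNAs named are the 15 largest changes in each direction among calls without overlap whose higher group averaged 0.5 FPKM or more, up to 5 per direction listed at 0 in one material, the 16 named in the paper's text, those at host genes of fixed lists, the 5 most abundant, the 10 with the smallest p for the stage difference, and calls lying close together. Host lists covered lipid, storage, lipoxygenase, starch, wall, transcription factor and flavonoid genes, and 0 lncRNAs matched the last. Host symbols come from the table, and the Glycine_max_v4.0 gene table was used for gene types only. The members and lists were chosen with earlier results of these data known. Figures were drawn with Python 3.11.15 and matplotlib 3.10.9. Other RNA types and the qRT-PCR were not used here.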

Additional observations from a re-analysis of the deposited data

Results flagged for a closer look

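For 7 lncRNAs the difference between MT72 and JN18 at 30 d was itself different from that at 40 d, by the contrast of both differences in the limma fit at an adjusted p of at most 0.05. The difference at 30 d minus that at 40 d, on the log2 scale, was 5.34 for MSTRG.46261.1 and 4.94 for MSTRG.46262.1, which overlap on opposite strands. It was 4.54 for MSTRG.51380.1, 4.49 for MSTRG.43107.1 and 3.86 for MSTRG.19913.1. For MSTRG.53721.2 it was -4.23, and for MSTRG.53475.1 it was -3.14. The adjusted p of these values ran from 0.0182 to 0.0391. For MSTRG.19913.1 and MSTRG.51380.1, which were listed at 0 in every library outside MT_30, the size of the value depends on the pseudocount and is no bound. Their spread comes from MT_30 alone, so their p values may be too small.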

How the results depend on the processing

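The number of calls moved between settings. All 86 calls kept their direction in every setting that tested them, but most settings could not turn it. The libraries of the materials did not overlap for any of the 86, so leaving out a library or changing the pseudocount could not do so. Other filters, no trend, the replicate block and the 30 d libraries alone left the fold changes as they were. The adjusted calls, with those higher and lower in MT72, were 41 (29 and 12) with a pseudocount of 0.01 FPKM, 136 (125 and 11) with 1 FPKM, 29 (20 and 9) with voom, 40 (27 and 13) with the 30 d libraries alone and 51 (34 and 17) with these and without JN_9. Leaving out 1 library gave 32 to 219 calls (25 to 165 higher, 7 to 54 lower), with 219 without JN_7, 52 without MT_7, 37 without MT_8 and 32 without MT_9. The unadjusted calls were 239 with a pseudocount of 1 FPKM and 630 above 0.5 FPKM, and 846 to 1576 with 1 library left out. The lncRNAs with a stage difference numbered 1 with a pseudocount of 0.01 FPKM, 0 with voom, and 0 to 9 with 1 library left out (1 without JN_4 or MT_6, 2 without JN_5, 4 without JN_8). Their causes were not tested. The sources used here do not say whether equal replicate numbers pair the samples. Deviations of same-numbered libraries had correlations of -0.17 to 0.01, and those of libraries with other numbers -0.10 to 0.13. With 3 libraries in a group these values do not decide it. With the replicate block, 45 lncRNAs were called (36 higher, 9 lower), or 26 (21 and 5) in the 30 d libraries alone, and 1 had a stage difference. The difference in lncRNAs detected turned to -21.5 without JN_9. Among uncalled lncRNAs named above, MSTRG.17790.1 turned to -0.15 with voom and -0.084 in both fits without JN_9 (0.61 without JN_7), and MSTRG.33761.1 to 0.15 with array weights and 0.35 in both fits without JN_9 (-0.77 without JN_8). MSTRG.21677.1 turned to -0.030 with a pseudocount of 1 FPKM, -0.055 with array weights, -0.35 with voom, -0.45 in the 30 d libraries without JN_9, and ran from -0.45 to 0.60 with 1 library left out. Values under 0.1 FPKM rest on few reads.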
